A study of Mus musculus with 15 samples.

Results

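*Foxl2*-null ovaries were compared with *Foxl2*+/- heterozygous ovaries at 7 days post-natum (dpn), so that the difference measures what changes when the second allele is lost as well. The comparison holds 4 of the 15 arrays of the series, chosen by genotype and age in the sample labels. Of these, 2 arrays carried RNA from *Foxl2*-/- (germline knock-out) ovaries and 2 carried RNA from *Foxl2*+/- ovaries. The mice were females of a mixed background, labelled NIHS-BC, which per the methods joins NIH-Swiss/BC with another strain. For each of these arrays, whole ovaries were pooled from several mice. The p-values rest on a spread shared by all 15 arrays, newborn ones included, and not on that between the 7 dpn pools alone. For reference, 2 arrays of 7 dpn wild-type ovaries and 6 arrays of newborn ovaries (3 null, 3 heterozygous) are given beside the comparison.

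FOXL2 is a forkhead transcription factor of the somatic cells of the ovary, above all of the granulosa cells that surround each oocyte. In the days after birth, granulosa cells of activated follicles become cuboidal and divide while the oocyte enters growth, and mice without *Foxl2* fail in this step. In humans, loss of a single *FOXL2* allele causes an eyelid malformation syndrome that in some families includes premature ovarian failure, which is why the heterozygote and the null are of interest side by side.

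Each value below is a log2 ratio of ovary over a universal mouse reference RNA on the same array, a level that can be compared between arrays for 1 probe but not between probes. Differences are null minus heterozygous on that scale, with the standard error (SE) of the limma model fitted over all 15 arrays. A probe is called here where its p, adjusted by Benjamini-Hochberg over all probes tested, was under 0.05. In the ovary channel, 94.3 to 95.2% of probes on the 4 arrays rose well above background. Replicate arrays correlated over probes with r of 0.965 (null) and 0.956 (heterozygous), against 0.918 to 0.932 between null and heterozygous arrays. In whole-ovary RNA, fewer cells of a type and less RNA per cell cannot be told apart.

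Loss of the second allele changed 904 of 40998 probes tested (2.2%), of which 389 were higher (0.949%) and 515 lower (1.26%) in null ovaries. The balance depended on the fit, with 386 higher and 377 lower under median centring, 157 and 151 with the ovary channel alone, 208 and 192 without null replicate 1, 143 and 114 without null replicate 2, and 124 and 250 with only the 7 dpn arrays. Among the called probes, 205 fell and 90 rose by more than 1 on the log2 scale, and 37 fell and 10 rose by more than 2. The median called fall was -0.84 and the median called rise 0.68, while the median over all probes was 0.0012. Null and heterozygous arrays did not overlap for any of the 904 called probes, nor for 43.7% of all probes measured on the 4 arrays. A gene symbol was held by 463 of the called probes, for 441 genes. By the brightest probe of each of 12248 named genes, 398 were called (3.25%), of which 187 rose (1.53%) and 211 fell (1.72%). The count of called probes was 400 and 257 without null replicate 1 or 2, and 449 and 344 without heterozygous replicate 1 or 2, so each gene below is given with what became of its call when 1 array was left out.

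The probe for *Foxl2* did not check the genotypes. Its log2 ratios were -0.27 and -0.22 in null, -0.25 and -0.30 in heterozygous and -0.34 and -0.27 in wild-type arrays, which overlap (difference 0.03 ± 0.05 SE, adjusted p = 0.954). The probe is printed because a knock-out design should be read from its target gene, together with probes of 3 genes whose values follow. The printed *Hsd3b1* probe is 1 of 2 that fell, while the third named for that gene did not pass the test, the printed *Sox9* probe did not pass it while another rose, and *Amh* was measured by a single probe. No part is singled out, so all letters are in lower case.
Foxl2: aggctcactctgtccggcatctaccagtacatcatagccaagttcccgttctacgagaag
Hsd3b1: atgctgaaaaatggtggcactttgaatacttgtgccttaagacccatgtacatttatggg
Sox9: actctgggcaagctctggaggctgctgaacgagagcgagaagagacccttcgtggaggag
Amh: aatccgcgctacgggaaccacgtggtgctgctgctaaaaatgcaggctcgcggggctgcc

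Granulosa cell genes were mostly lower in null ovaries. Of 32 genes listed for granulosa cells and follicle growth, 25 were measured, 17 of them lower. The list had 6 genes that fell and 1 that rose (28% called, against 3.25% of all named genes), and a median difference of -0.27. *Hsd17b1*, which turns estrone into the stronger estrogen estradiol, had log2 ratios of 0.03 and -0.01 in null, 2.54 and 2.65 in heterozygous and 3.03 and 2.80 in wild-type arrays. It stood lower on both null arrays than on any other and fell 6.01-fold (difference -2.59 ± 0.32 SE, adjusted p = 0.0019), a call that held without each of the 4 arrays in turn. *Gja1*, the gap junction protein that couples granulosa cells to one another, had ratios of -1.40 and -1.60 in null, 0.33 and 0.67 in heterozygous and 1.52 and 1.37 in wild-type arrays. The genotypes followed one another without overlap, and the gene fell by 2.00 ± 0.42 (adjusted p = 0.0314). *Igf1*, a growth factor of growing follicles, read 0.86 on both null arrays against 2.20 and 2.01 in heterozygous ovaries and fell by 1.24 ± 0.22 (adjusted p = 0.0132).

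The remaining falls in the list were those of *Esr2*, *Amh* and *Ptges*. *Esr2*, the estrogen receptor of granulosa cells, read -0.21 and -0.46 in null and 0.42 and 0.37 in heterozygous arrays (difference -0.73 ± 0.11, adjusted p = 0.00736). *Amh*, anti-Müllerian hormone, which growing follicles secrete, read 0.14 on both null arrays against 0.89 and 0.75 in heterozygous and 1.08 and 0.91 in wild-type ovaries, and fell by 0.68 ± 0.13 (adjusted p = 0.0244). *Ptges*, a prostaglandin E synthase, fell by only 0.27 ± 0.05 (adjusted p = 0.0134). *Foxo1*, a forkhead factor of growing granulosa cells named here after its values were seen, fell by 0.68 (ratios 1.09 and 1.00 against 1.77 and 1.68, adjusted p = 0.0307). The calls of *Gja1*, *Igf1*, *Amh*, *Ptges* and *Foxo1* were lost when any 1 of the 4 arrays was left out, with *Gja1* between -2.14 and -1.81, *Igf1* between -1.33 and -1.16, *Amh* between -0.73 and -0.62, *Ptges* between -0.28 and -0.25 and *Foxo1* between -0.74 and -0.62. That of *Esr2* was kept only without null replicate 1 (-0.84), and its difference was -0.42 with normexp background correction, still called. Of the 13 alternative fits described at the end, 7 lost the *Esr2* call, counting those without 1 array.

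The exception in the list was *Nr0b1*, which encodes DAX1, an orphan nuclear receptor that represses steroid genes. It read 5.69 and 5.79 in null, 3.97 and 4.27 in heterozygous and 3.97 and 3.41 in wild-type arrays, and rose 3.07-fold (difference 1.62 ± 0.35, adjusted p = 0.0359). The call was lost without any 1 of the 4 arrays (1.45 to 1.76).

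Several granulosa genes with large differences did not pass the test. *Nr5a2*, the nuclear receptor LRH-1, read 0.07 and 0.64 in null and 1.74 and 2.58 in heterozygous arrays (difference -1.80 ± 0.50, adjusted p = 0.113). *Inha*, the inhibin alpha subunit, read 2.63 and 3.03 against 4.10 and 4.23 (difference -1.34 ± 0.36, adjusted p = 0.0959). *Inhba*, the activin beta A subunit, differed little between null (-1.93 and -1.82) and heterozygous arrays (-1.46 and -1.50), at -0.40 ± 0.28 (adjusted p = 0.716). In wild-type ovaries *Inhba* was at 0.92 and 0.28, and heterozygous minus wild-type was -2.08 (adjusted p = 0.0307). *Fshr*, the follicle-stimulating hormone receptor, differed by 0.08 (adjusted p = 0.853) with overlapping arrays.

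Steroid synthesis genes had 1 call in each direction. Of 26 listed genes of theca cells and steroid synthesis, 21 were measured, 1 rose and 1 fell by the brightest probe (9.52% called, against 3.25% of all named genes), and the median was -0.07. *Akr1c18*, the enzyme that inactivates progesterone, read -0.28 and -0.89 in null, 0.69 and 1.17 in heterozygous and 2.48 and 2.65 in wild-type arrays. It fell by 1.52 ± 0.31 (adjusted p = 0.0277), was well above background on only 1 null array, and kept its call only without null replicate 1 (-1.85). The call of *Akr1c18* was also lost with normexp background correction (-0.42) and in the authors' series values (-0.57). The dimmer probe of *Akr1c18* differed by -0.06 ± 0.22 (adjusted p = 0.987). *Cyp11a1*, the side-chain cleavage enzyme that starts steroid synthesis, read -2.13 and -0.31 in null, 1.38 and 0.70 in heterozygous and 2.72 and 1.82 in wild-type arrays. Its null arrays lay far apart, 1 of them not well above background, and the difference of -2.26 ± 0.68 was not called (adjusted p = 0.153). *Cyp17a1*, the enzyme that makes androgens from progestins, differed by -0.24 (adjusted p = 0.835), and *Star*, which carries cholesterol into mitochondria, by -0.24 (adjusted p = 0.85). *Nr5a1*, which encodes SF1, a nuclear receptor that drives steroid genes, differed by 0.25 ± 0.09 (adjusted p = 0.283).

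Probes of the same gene disagreed for *Hsd3b1* and *Cyp19a1*, and the called probes other than the brightest are named here after their values were seen. A probe named for *Hsd3b1*, the enzyme that converts pregnenolone to progesterone, read 0.25 and -0.12 in null, 3.84 and 3.57 in heterozygous and 3.89 and 4.20 in wild-type arrays. It fell 12.5-fold, the largest fall of a named probe (difference -3.64 ± 0.37, adjusted p = 5.89e-04), and the call held without each array and at -5.87 with the ovary channel alone. The printed probe of the gene fell by 2.76 ± 0.50 (adjusted p = 0.0152; lost without any 1 array, -2.93 to -2.57), while the brightest, at -0.15 and -0.07 against -0.09 and 0.02, differed by -0.07 (adjusted p = 0.919). *Hsd3b1* belongs to a family of near-identical genes, so which member each probe reads is uncertain. For *Cyp19a1*, the aromatase that makes estrogens, 1 of 2 probes read 0.42 and 0.02 in null, 2.32 and 3.15 in heterozygous and 4.45 and 3.89 in wild-type arrays and fell by 2.51 ± 0.49 (adjusted p = 0.0217). Its call was kept only without heterozygous replicate 1 (-2.92), and it was lost with normexp (-1.12) and in the series values (-1.32). The brighter probe differed by -0.51 ± 0.34 (adjusted p = 0.688). *Hsd17b3*, known as the testis enzyme that makes testosterone, rose on both probes. The dimmer probe read 0.74 and 1.02 against -0.19 and -0.06 and rose by 1.01 ± 0.10 (adjusted p = 5.55e-04, held without each array), and the brighter one rose by 0.38 ± 0.08 (adjusted p = 0.0402; kept only without null replicate 1, at 0.49, and at 0.25 without null replicate 2). In 3 of the 13 alternative fits the dimmer *Hsd17b3* probe lost its call.

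**Figure D1:**
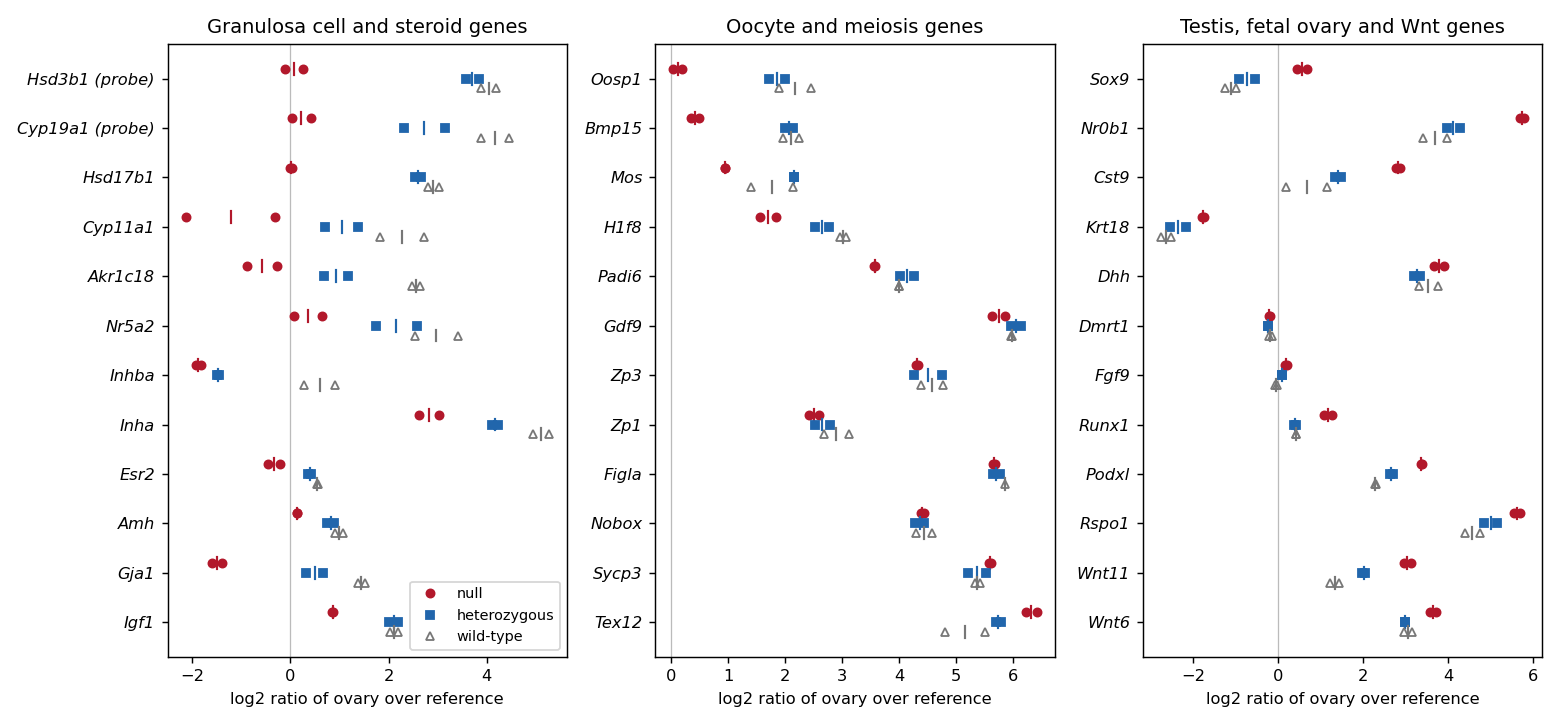
Log2 ratio of ovary over reference (horizontal axis) of genes grouped by role, for each 7 dpn array: null (red circles), heterozygous (blue squares) and wild-type (grey triangles), 2 arrays a group, with a short vertical line at each group mean. Null arrays lie to the left for *Hsd17b1*, *Gja1*, *Oosp1* and *Bmp15*, and to the right for *Sox9*, *Nr0b1* and *Cst9*, whereas *Dmrt1*, *Figla* and *Zp3* differ little.

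Genes of oocyte growth were mostly lower in null ovaries. Of 32 listed genes of oocyte growth and the zona pellucida, 24 were measured, 19 of them lower, 5 fell (20.8%, against 1.72% of all named genes) and none rose, and the median was -0.19. *Oosp1*, an oocyte-secreted protein, read 0.03 and 0.18 in null, 2.00 and 1.72 in heterozygous and 2.45 and 1.89 in wild-type arrays and fell by 1.75 ± 0.26 (adjusted p = 0.00567), with a dimmer probe at -0.16 (adjusted p = 0.958). *Bmp15*, an oocyte-secreted growth factor that acts on granulosa cells, read 0.49 and 0.35 against 2.13 and 1.99 and fell by 1.64 ± 0.28 (adjusted p = 0.0124). *Mos*, the kinase that holds the mature egg in meiosis, read 0.94 on both null arrays against 2.15 and 2.16 (difference -1.21 ± 0.24, adjusted p = 0.0243), although the wild-type arrays spread from 1.39 to 2.13. *H1f8*, the oocyte linker histone, read 1.83 and 1.55 against 2.77 and 2.51 (difference -0.95 ± 0.17, adjusted p = 0.0153). *Padi6*, a protein of the oocyte cytoplasmic lattices, was at 3.56 and 3.57 against 4.26 and 4.02 and fell by 0.58 ± 0.08 (adjusted p = 0.00353). The call of *Padi6* held without each array, those of *Bmp15* (-1.74 to -1.57) and *Mos* (-1.25 to -1.20) were lost without any 1, that of *Oosp1* was kept only without heterozygous replicate 2 (-1.90) and that of *H1f8* only without null replicate 1 (-1.08). *Padi6* nevertheless lost its call in 4 of the 13 alternative fits.

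The other genes of the oocyte list were not called. *Gdf9*, the partner of *Bmp15*, read 5.62 and 5.86 in null and 5.95 and 6.13 in heterozygous arrays (difference -0.30 ± 0.28, adjusted p = 0.838). The zona pellucida gene *Zp3* differed by -0.20 (adjusted p = 0.943). *Figla* and *Nobox*, transcription factors that switch on oocyte genes, differed by -0.04 (adjusted p = 0.971) and 0.05 (adjusted p = 0.974). *Oog1*, a gene of a repeated oocyte family, read 3.91 and 3.87 against 6.46 and 6.84, a large difference of -2.76 ± 0.67 that did not pass the test (adjusted p = 0.0676). *Obox1*, an oocyte homeobox gene outside the list, fell by 1.99 ± 0.29 (-0.43 and -0.56 against 1.40 and 1.58, adjusted p = 0.00495), a call lost without null replicate 2 (-1.93) or heterozygous replicate 2 (-1.91).

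None of the 27 measured genes of germ cell identity and meiosis was called, near the 3.25% of all named genes, with a median of 0.09. The largest differences were those of *Tex12*, a protein of the synaptonemal complex, at 0.59 ± 0.25 (6.23 and 6.41 against 5.69 and 5.78, adjusted p = 0.377), and *Tex14*, which keeps the bridges between germ cells, at -0.40 ± 0.12 (adjusted p = 0.156). *Sycp3*, the lateral element of the paired chromosomes, differed by 0.23 (adjusted p = 0.4), and *Ddx4*, a helicase of all germ cells, by -0.31. At an unadjusted p under 0.05 limma counted 4788 probes of all 40998, against 904 called.

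Of 35 testis and Sertoli cell genes listed, 32 were measured, 17 were higher and 15 lower, and the median was 0.03. The test called 6 of them (18.8%, against 3.25% of all named genes), of which 4 rose and 2 fell. *Sox9*, the transcription factor that starts testis development, read 0.45 and 0.69 in null, -0.54 and -0.93 in heterozygous and -1.25 and -0.99 in wild-type arrays, with no overlap. It rose 2.48-fold (difference 1.31 ± 0.13, adjusted p = 6.05e-04), and the call held without each array. The printed probe, the dimmer of the pair, differed by -0.02 ± 0.16 (adjusted p = 0.996). *Cst9*, a cystatin of fetal Sertoli cells, read 2.78 and 2.86 against 1.48 and 1.33 and rose by 1.41 ± 0.25 (adjusted p = 0.013). *Krt18*, a keratin of simple epithelia, rose by 0.59 ± 0.12 (adjusted p = 0.0331). *Nr0b1* rose and *Amh* and *Ptges* fell, as given above. *Dmrt1*, which keeps Sertoli cells male, differed by 0.03 (adjusted p = 0.945), *Fgf9*, the growth factor that sustains *Sox9*, by 0.09 (adjusted p = 0.665) and *Dhh*, the hedgehog ligand of Sertoli cells, by 0.52 ± 0.47 (adjusted p = 0.827). The call of *Cst9* was lost without any 1 array (1.32 to 1.49), and that of *Krt18* was kept only without heterozygous replicate 2 (0.77).

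Of 22 listed somatic genes of the fetal ovary, 16 were measured, 12 of them higher and 4 lower in null ovaries, with a median of 0.33. The test called 3 (18.8%, against 1.53% of all named genes called higher), all higher, and each lost its call in 3 or 4 of the fits without 1 array. All 3 also stand in the study's ranking of genes for mutant over wild-type ovary over testis. Their share is thus not that of genes picked without regard to *Foxl2* loss. *Runx1*, a transcription factor of fetal granulosa cell precursors, read 1.08 and 1.28 in null against 0.37 and 0.41 in heterozygous and 0.42 and 0.42 in wild-type arrays, and rose by 0.79 ± 0.13 (adjusted p = 0.00976; kept only without null replicate 1, at 0.89). *Podxl*, a sialomucin of epithelial surfaces, read 3.39 and 3.35 against 2.70 and 2.63 (difference 0.71 ± 0.14, adjusted p = 0.0207), lost without any 1 array (0.67 to 0.74) and called at 1.44 with the ovary channel alone, and its dimmer probe was at -0.01 (adjusted p = 0.993). *Zbtb7c*, a zinc finger gene, rose by 0.56 ± 0.11 (adjusted p = 0.025; kept only without null replicate 1, at 0.70). *Rspo1*, the ligand that strengthens Wnt signals in the fetal ovary, read 5.54 and 5.69 against 4.85 and 5.15, a difference of 0.62 ± 0.17 that was not called (adjusted p = 0.106). *Rspo1* passed the test with normexp background correction (0.78), a wider lowess span (0.66), median centring (0.65), the authors' series values (1.88) and the ovary channel without the reference (2.05). *Lgr5*, a receptor of such ligands, was higher by 1.13 ± 0.28 (adjusted p = 0.0708) and *Irx3* by 0.37 (adjusted p = 0.323), both short of the threshold. *Gng13*, a G protein subunit, differed by -0.24 (adjusted p = 0.839).

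Signalling families were read against the 3.25% of all named genes called. In the TGF-beta, BMP and activin family, 39 of 48 genes were measured, 28 of them lower, with 5 that fell, 1 that rose (15.4% called) and a median of -0.14. Beside *Bmp15* and *Amh*, the falls were *Id3*, a target of BMP signals (difference -0.70 ± 0.15, adjusted p = 0.0357), the ligand *Tgfb2* (0.38 and 0.31 against 0.99 and 0.80, difference -0.55 ± 0.09, adjusted p = 0.00805) and *Ltbp2*, a matrix protein related to those that bind latent TGF-beta (-1.16 and -1.18 against -0.68 and -0.64, difference -0.51 ± 0.07, adjusted p = 0.00491). *Fstl3*, a secreted inhibitor of activin, rose by 0.43 ± 0.06 (0.21 and 0.33 against -0.17 and -0.16, adjusted p = 0.00444), held without each array. The *Fstl3* call was lost in 3 of the 13 alternative fits. *Id3* lost its call without any 1 array (-0.83 to -0.60), *Tgfb2* without null replicate 2 (-0.50) or heterozygous replicate 1 (-0.43), and *Ltbp2* without null replicate 2 (-0.50) or heterozygous replicate 2 (-0.49).

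In the Wnt family, 34 of 48 genes were measured, 3 rose (8.82%) and none fell, and the median was 0.04. Called or not, 20 were higher and 14 lower, with differences from -1.18, not called, to 2.42. *Wif1*, a secreted protein that binds and inhibits Wnt ligands, had the largest called rise of the genes named here in the main fit. It read 2.66 and 3.67 in null, 0.33 and 1.15 in heterozygous and 1.01 and 1.34 in wild-type arrays (difference 2.42 ± 0.38, adjusted p = 0.00703), and its call was lost without null replicate 2 (1.92) or heterozygous replicate 1 (1.99). The rise of *Wif1* was 1.16 with normexp and 1.36 in the series values, called in both. Without null replicate 2 or heterozygous replicate 1, *Cd83*, given below, rose more (2.17 and 2.22). The ligand *Wnt11* read 3.13 and 2.95 in null, 2.03 and 1.98 in heterozygous and 1.44 and 1.22 in wild-type arrays (difference 1.03 ± 0.20, adjusted p = 0.02). *Wnt6* rose by 0.66 ± 0.14 (adjusted p = 0.0429). Both ligands lost their call without any 1 array, *Wnt11* between 0.95 and 1.12 and *Wnt6* between 0.59 and 0.74. *Lef1*, a transcription factor of the pathway, was higher by 1.01 ± 0.35 (adjusted p = 0.24).

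Of the insulin-like growth factor genes, 11 of 16 were measured, 2 were called (18.2%), and *Igf1* and *Htra1*, a protease that cuts binding proteins of the pathway, fell (*Htra1* difference -0.74 ± 0.12, adjusted p = 0.008, lost without null replicate 2, at -0.68, or heterozygous replicate 2, at -0.60). No gene was called among 19 of 22 Notch genes and 10 of 16 hedgehog genes measured. The largest Notch differences were in *Hes5*, at -1.01 ± 0.27 (adjusted p = 0.0919), and *Hey2*, at -0.996 ± 0.40 (adjusted p = 0.328), both repressors switched on by Notch, and both passed the test with normexp background correction (*Hes5* -0.56, *Hey2* -1.17). *Gli1*, the readout of hedgehog signals, was at 1.69 and 1.45 in null, 2.21 and 2.06 in heterozygous and 3.27 and 2.90 in wild-type arrays (difference -0.56 ± 0.19, adjusted p = 0.224).

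**Figure D2:**
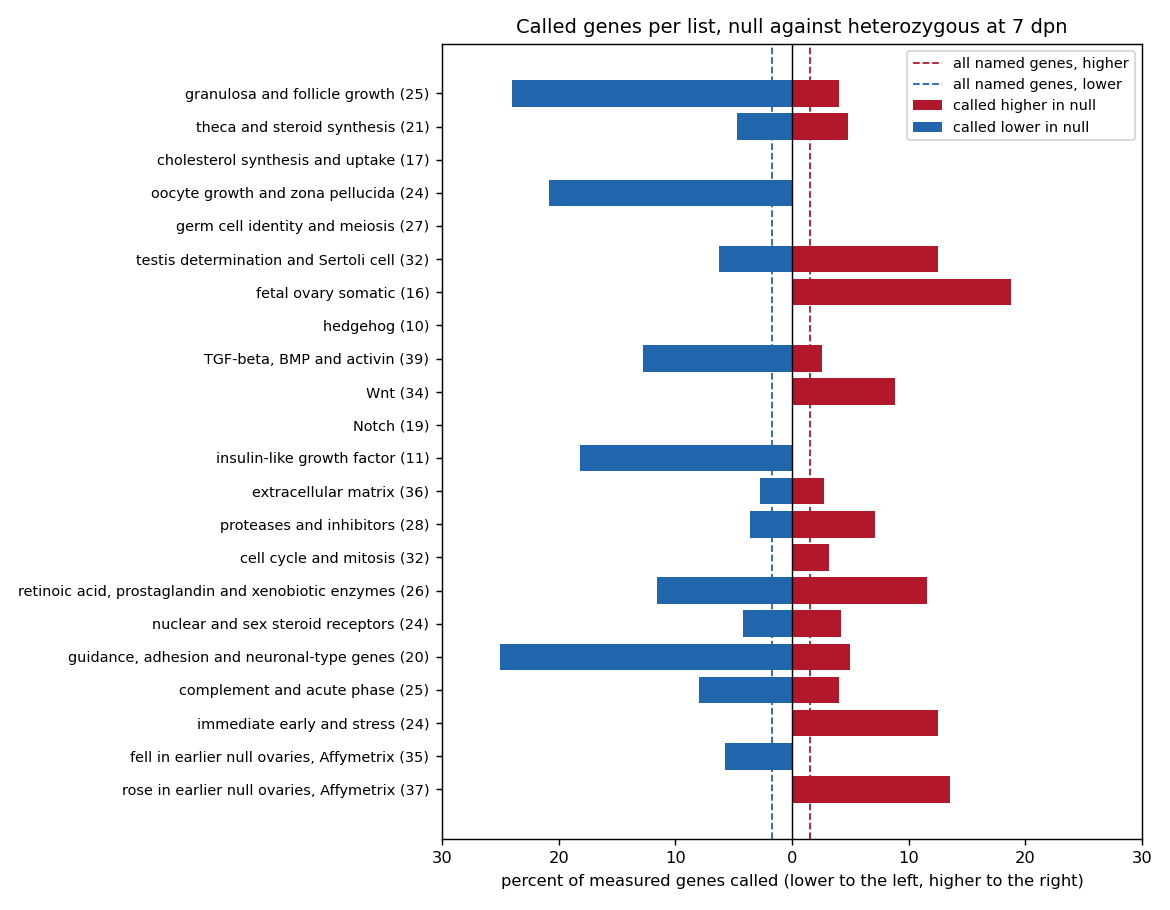
Percent of the measured genes of each gene list (number in parentheses, by brightest probe) that were called lower (blue, to the left) or higher (red, to the right) in null than in heterozygous 7 dpn ovaries, with dashed lines at the share of all named genes, 1.72% lower and 1.53% higher. Guidance and granulosa genes have the largest shares of falls (5 of 20 and 6 of 25), and fetal ovary somatic genes the largest share of rises (3 of 16) among the gene lists drawn, which leave out the cell type markers. These lists hold genes that the study had already reported as changed by *Foxl2* loss.

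Guidance and adhesion genes had 5 falls and 1 rise among 20 measured of 32 (30% called, against 3.25% of all named genes), with a median of 0.0026. The study had already reported *Lrrc4*, *Tenm4* (as *Odz4*) and *Plxnc1* as lower without *Foxl2*. The share is thus not that of genes picked without regard to *Foxl2* loss. *Lrrc4*, a neuronal adhesion protein, read 1.01 and 1.26 in null and 3.05 on both heterozygous arrays and fell by 1.92 ± 0.27 (adjusted p = 0.00399). *Tenm4*, a teneurin of cell contacts formerly named *Odz4*, read 0.38 on both null arrays, 2.17 and 1.93 in heterozygous and 2.36 and 3.22 in wild-type arrays and fell by 1.67 ± 0.31 (adjusted p = 0.0187; lost without any 1 array, -1.79 to -1.59). *Plxnc1*, a semaphorin receptor, fell by 0.79 ± 0.11 (adjusted p = 0.00409). *Cdh1*, E-cadherin, which in the ovary is found on oocytes and surface epithelium, fell by 0.77 ± 0.15 (adjusted p = 0.0263), and the ligand *Sema3c* by 0.44 ± 0.09 (adjusted p = 0.0367). *Sema3a*, a repellent of axons, went the other way, from -3.13 and -2.68 in heterozygous to -1.88 and -1.74 in null arrays (difference 1.10 ± 0.13, adjusted p = 0.0016), with its dimmer probe at 0.14 (adjusted p = 0.872). The calls of *Lrrc4*, *Plxnc1* and *Sema3a* held without each array, while *Cdh1* (-0.82 to -0.69) and *Sema3c* (-0.49 to -0.36) lost theirs without any 1, and also with the ovary channel alone (*Cdh1* -0.43, *Sema3c* -0.21). Of the 13 alternative fits, *Lrrc4* lost its call in 1, and *Plxnc1* and *Sema3a* lost theirs in 2 each. A probe of *Robo1*, a receptor of Slit ligands, named after its values were seen, fell by 1.47 ± 0.32 (adjusted p = 0.0429; lost without any 1 array, -1.5 to -1.36), and the brighter probe stood at 0.02 (adjusted p = 0.957).

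Enzymes of retinoic acid, prostaglandin and foreign compound metabolism went both ways, with 3 rises and 3 falls among 26 measured of 34 (23.1% called, against 3.25% of all named genes). *Ephx2*, the soluble epoxide hydrolase, read 0.91 and 1.03 in null, 3.24 and 3.33 in heterozygous and 4.08 and 3.62 in wild-type arrays and fell 4.98-fold (difference -2.32 ± 0.29, adjusted p = 0.00204), held without each array. *Ptger2*, a prostaglandin E receptor, fell by 0.88 ± 0.13 (adjusted p = 0.00631; lost without null replicate 2, at -0.82, or heterozygous replicate 2, at -0.83). The rises were the glutathione transferase *Gsta3* (2.07 and 2.21 against 1.11 and 1.31, difference 0.94 ± 0.18, adjusted p = 0.0203), the quinone reductase *Nqo1* (difference 0.71 ± 0.11, adjusted p = 0.00864) and *Aldh1a2*, which makes retinoic acid (difference 0.70 ± 0.14, adjusted p = 0.0302). *Gsta3* (0.83 to 1.03) and *Aldh1a2* (0.58 to 0.85) lost their calls without any 1 array, and *Nqo1* without null replicate 2 (0.64) or heterozygous replicate 2 (0.60). For *Aldh1a2*, the call was also lost under median centring (0.72) and kept with the ovary channel alone (1.67) and in the series values (1.62), while its other probes, at 0.33 (adjusted p = 0.897) and 0.52 (adjusted p = 0.37), were not called. The dimmer *Nqo1* probe stood at 0.11 (adjusted p = 0.51).

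Matrix and protease genes changed one by one. Among 36 of 52 matrix genes measured, 26 were lower (median -0.17), and the 2 calls (5.56%, against 3.25% of all named genes) were the laminin chain *Lamb1*, which fell on both of its probes (-0.68 ± 0.13, adjusted p = 0.0195, and -0.72 ± 0.16, adjusted p = 0.0412), and the collagen chain *Col6a2*, which rose by 0.50 ± 0.10 (adjusted p = 0.0204). *Lamb1* kept its call only without null replicate 1 (-0.81) and *Col6a2* only without heterozygous replicate 1 (0.59). Among 28 of 36 proteases and inhibitors 3 were called (10.7%). *Mmp11*, stromelysin 3, read -0.02 and -0.07 in null against 0.96 and 1.03 and fell by 1.04 ± 0.14 (adjusted p = 0.00308, held without each array), with the dimmer probe at 0.08 (adjusted p = 0.849). *Adamts8* rose by 0.74 ± 0.14 (adjusted p = 0.0189; kept only without heterozygous replicate 1, at 0.89), and the protease inhibitor *Timp1* by 0.45 ± 0.09 (adjusted p = 0.0278; lost without any 1 array, 0.43 to 0.47).

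Of 40 listed cell division genes, 32 were measured, 23 of them lower, with a median of -0.10. Null and heterozygous arrays did not overlap for 23 of them, against 43.7% of all probes, and 1 was called (3.12%, near the 3.25% of all named genes). That call was *Ccnd1*, cyclin D1, at -0.22 and -0.17 in null against -0.92 and -0.97 (difference 0.75 ± 0.15, adjusted p = 0.0255; lost without any 1 array, 0.72 to 0.79). No cholesterol synthesis gene was called among 17 of 28 measured, with a median of -0.02. Of 24 immediate early and stress genes measured, 3 rose (12.5%, against 1.53% of all named genes), with a median of -0.08. These were *Gadd45b*, a stress sensor (0.21 and 0.31 in null, -0.83 and -0.65 in heterozygous and -1.40 and -1.57 in wild-type arrays, difference 1.00 ± 0.12, adjusted p = 0.00157, held without each array), *Ier3* (difference 0.71 ± 0.13, adjusted p = 0.0178, lost without any 1 array, 0.63 to 0.80) and *Ier5* (difference 0.69 ± 0.11, adjusted p = 0.00919, lost without null replicate 2, at 0.63, or heterozygous replicate 1, at 0.61). *Gadd45b* lost its call in 1 of the 13 alternative fits. Among complement and acute phase genes, 3 of 25 were called (12%, against 3.25% of all named genes), with 1 higher and 2 lower. *Apoa1*, the main protein of HDL particles, read 0.54 and 0.58 in null against 2.78 and 3.00 (difference -2.32 ± 0.41, adjusted p = 0.0132). *Apoc1*, another apolipoprotein, rose by 0.93 ± 0.20 (adjusted p = 0.0359). *Apoa1* and *Apoc1* lost their calls without any 1 array, *Apoa1* between -2.43 and -2.21 and *Apoc1* between 0.82 and 1.04. The fall of *Apoa1* was -1.18 with normexp and -1.42 in the series values, called in both. Of 24 measured nuclear receptor and steroid receptor genes, the calls (8.33%, against 3.25%) were *Nr0b1* and *Esr2*, given above.

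**Figure D3:**
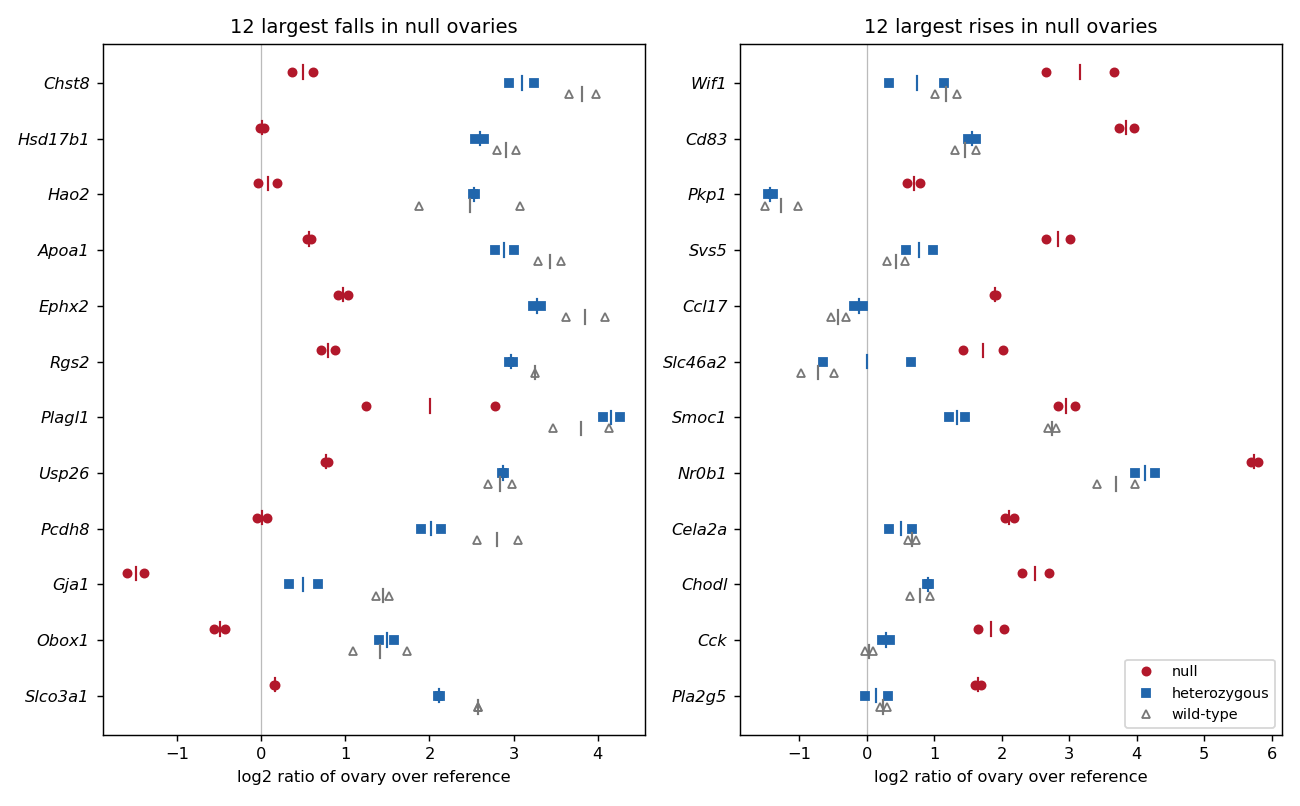
Log2 ratio of ovary over reference on each 7 dpn array for the 12 named genes with the largest called falls (left) and rises (right) in null ovaries, by brightest probe: null (red circles), heterozygous (blue squares) and wild-type (grey triangles), 2 arrays a group (1 wild-type array for *Rgs2*), with a vertical line at each mean. The red and blue symbols do not overlap in any row, which the naming rule required, and the null arrays of *Plagl1* lie far apart (2.78 and 1.24).

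The other large falls were of genes with varied roles. *Chst8*, which adds sulfate to the sugars of pituitary hormones, read 0.61 and 0.37 in null, 3.24 and 2.95 in heterozygous and 3.66 and 3.99 in wild-type arrays and had the largest called fall by a brightest probe (-2.61 ± 0.37, adjusted p = 0.00445; lost without null replicate 2, at -2.48). *Hao2*, a hydroxy acid oxidase of peroxisomes, fell by 2.45 ± 0.36 (adjusted p = 0.00547; lost without null replicate 2, at -2.36, and called at -1.45 with normexp). *Rgs2*, which damps G protein signals, read 0.88 and 0.71 against 2.99 and 2.94 (difference -2.17 ± 0.23, adjusted p = 0.0012). *Slco3a1*, an organic anion carrier, fell from 2.10 and 2.12 to 0.15 and 0.16 (difference -1.95 ± 0.26, adjusted p = 0.00278), and *Usp26*, a deubiquitinase of germ cells, from 2.86 and 2.89 to 0.80 and 0.75 (difference -2.10 ± 0.22, adjusted p = 8.69e-04). The calls of *Rgs2*, *Slco3a1* and *Usp26* held without each array.

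Less firm were *Plagl1*, an imprinted zinc finger gene, *Pcdh8*, a protocadherin, and *Fbxw16*, a member of an oocyte F-box family of near-identical copies. *Plagl1* fell by 2.15 ± 0.40 (adjusted p = 0.0186), but by 1.37 without null replicate 2, and kept its call only without null replicate 1 (-2.91). *Pcdh8* read -0.05 and 0.06 against 1.90 and 2.14 (difference -2.01 ± 0.33, adjusted p = 0.00877), and *Fbxw16* 0.53 on both null arrays against 2.32 and 2.57 (difference -1.92 ± 0.31, adjusted p = 0.00872). Each kept its call only without heterozygous replicate 1 (*Pcdh8* -2.16, *Fbxw16* -2.07). With normexp *Pcdh8* stood at -1.28 and *Plagl1* at -0.82, both called, and *Plagl1* was lost in the series values (-0.96).

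The large rises were likewise of varied roles. *Cd83*, a surface protein of mature dendritic cells, read 3.73 and 3.96 in null, 1.5 and 1.62 in heterozygous and 1.31 and 1.62 in wild-type arrays and rose 4.88-fold (difference 2.29 ± 0.30, adjusted p = 0.0027), with a second probe that rose by 2.33 ± 0.29 (adjusted p = 0.00196). *Ccl17*, a chemokine that attracts T cells, read 1.91 and 1.88 against -0.18 and -0.06 (difference 2.02 ± 0.19, adjusted p = 3.77e-04). *Tec*, a kinase of blood cells, rose by 1.42 ± 0.17 (adjusted p = 0.00164), with its dimmer probe at 0.26 ± 0.08 (adjusted p = 0.133). *Svs5*, a secretory protein of the seminal vesicle, read 2.66 and 3.01 against 0.58 and 0.98 (difference 2.05 ± 0.23, adjusted p = 0.00106), and *Cela2a*, a pancreatic elastase, 2.05 and 2.18 against 0.34 and 0.68 (difference 1.61 ± 0.13, adjusted p = 1.59e-04). *Cck*, the gut and brain peptide cholecystokinin, read 1.64 and 2.04 against 0.35 and 0.23 (difference 1.55 ± 0.16, adjusted p = 6.01e-04). *Pkp1*, a desmosome protein, read 0.60 and 0.79 in null, -1.46 and -1.39 in heterozygous and -1.51 and -1.01 in wild-type arrays (difference 2.12 ± 0.21, adjusted p = 5.12e-04). *Prkg2*, a cGMP-dependent kinase, rose by 1.47 ± 0.14 (adjusted p = 4.71e-04) and by 0.79 with normexp, called as well. All 8 calls held without each array. Of the 13 alternative fits, *Tec* lost its call in 2, and *Svs5* and *Cck* lost theirs in 1 each.

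Of the remaining large rises, *Pla2g5*, a secreted phospholipase, went from -0.02 and 0.31 to 1.60 and 1.69 (difference 1.5 ± 0.22, adjusted p = 0.00503) and lost its call without null replicate 2 (1.45), in the series values (0.96) and with the ovary channel alone (1.12). With normexp *Pla2g5* and *Slc46a2*, the next gene, both stood at 0.60 and were called. *Slc46a2*, a thymic stromal transporter well above background on only 1 heterozygous array, rose by 1.72 ± 0.38 (adjusted p = 0.044), kept its call only without heterozygous replicate 2 (2.37) and stood at 1.07 without heterozygous replicate 1 and, not called, at 0.78 in the series values. *Chodl*, a membrane lectin, rose by 1.59 ± 0.30 (adjusted p = 0.0189; lost without any 1 array, 1.41 to 1.79), and its dimmer probe was at 0.27 (adjusted p = 0.763). *Smoc1*, a matrix protein that modulates BMP signals, differed from the others in where the wild-type ovaries lay. It read 2.84 and 3.08 in null, 1.21 and 1.46 in heterozygous and 2.69 and 2.80 in wild-type arrays, so that the heterozygous arrays were the low ones. Null minus heterozygous was 1.62 ± 0.15 (adjusted p = 3.86e-04, held without each array), heterozygous minus wild-type -1.41 (adjusted p = 0.0207) and null minus wild-type 0.21 (adjusted p = 0.582). The dimmer probe of *Smoc1* stood at 0.23 (adjusted p = 0.417).

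Of the metallothioneins, small proteins that bind metals such as zinc, *Mt1* and *Mt2* rose, while *Mt3* (-0.03, adjusted p = 0.946) and *Mt4* (-0.42, adjusted p = 0.561) were not called. *Mt2* read -0.32 and -0.20 in null, -1.67 and -1.79 in heterozygous and -2.06 and -2.14 in wild-type arrays (difference 1.47 ± 0.12, adjusted p = 2.63e-04). *Mt1*, named with *Mt3*, *Mt4*, *Vdr* and *Fgf18* after the values were seen, read -0.996 and -0.94 in null against -2.06 and -2.16 in heterozygous and -2.14 and -2.19 in wild-type arrays (difference 1.14 ± 0.11, adjusted p = 5.40e-04). *Vdr*, the vitamin D receptor, rose on both of its probes, by 1.29 ± 0.15 (adjusted p = 0.00128) and 1.31 ± 0.17 (adjusted p = 0.0027). The growth factor *Fgf18* went from 0.94 and 0.74 to 2.18 and 2.21 (difference 1.35 ± 0.15, adjusted p = 0.00106). The calls of *Mt1*, *Mt2*, *Vdr* and *Fgf18* held without each array.

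The promoters of *Mt1* and *Mt2*, which both rose, and of *Hsd3b1*, whose probe had the deepest called fall, are printed from RefSeq (GRCm38.p6, 250 bases before to 50 after the start, on the gene's strand). Both strands were searched for TGCACAC, a form of the metal response element core, for TAAACA, a forkhead core, and for AAGGTCA, bound by NR5A receptors, and capitals mark a match. The same search in the promoters of *Cyp19a1* (3 promoters), *Bmp15* and *Nr0b1*, which are not printed, found 0 matches to any of the 3 motifs. *Mt1* lies at chr8:94178839-94179138 (+), *Mt2* at chr8:94172368-94172667 (+) and *Hsd3b1* at chr3:98859745-98860044 (-).
Mt1: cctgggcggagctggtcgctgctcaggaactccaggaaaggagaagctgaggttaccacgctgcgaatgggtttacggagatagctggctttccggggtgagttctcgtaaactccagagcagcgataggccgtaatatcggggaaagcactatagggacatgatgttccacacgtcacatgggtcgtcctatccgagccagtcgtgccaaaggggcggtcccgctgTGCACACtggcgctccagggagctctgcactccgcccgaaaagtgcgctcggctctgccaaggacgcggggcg
Mt2: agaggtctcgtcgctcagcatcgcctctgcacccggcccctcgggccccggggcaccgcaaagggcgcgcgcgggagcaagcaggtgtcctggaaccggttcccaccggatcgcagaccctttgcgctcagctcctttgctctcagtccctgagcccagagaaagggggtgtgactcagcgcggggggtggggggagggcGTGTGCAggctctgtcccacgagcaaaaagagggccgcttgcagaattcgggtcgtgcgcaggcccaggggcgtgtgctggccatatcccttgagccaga
Hsd3b1: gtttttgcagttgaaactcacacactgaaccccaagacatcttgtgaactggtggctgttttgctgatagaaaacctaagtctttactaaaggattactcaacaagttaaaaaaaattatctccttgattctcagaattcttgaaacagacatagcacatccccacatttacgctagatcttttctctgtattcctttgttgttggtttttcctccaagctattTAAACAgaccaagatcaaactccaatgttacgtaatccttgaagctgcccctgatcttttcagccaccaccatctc
The match in *Mt1* begins at position -23 from the start, that in *Mt2*, on the other strand, at -50 and that in *Hsd3b1* at -26. TGCACAC occurs in 4.40% of all 32851 promoters of this length, in 5.83% of 206 promoters of genes called higher and in 4.5% of 222 promoters of genes called lower. TAAACA occurs in 13.4% of all promoters, 8.25% of the higher and 9.91% of the lower, and AAGGTCA in 4.72%, 2.91% and 3.15%. These shares cover 159 of the 210 genes called higher and 184 of the 231 called lower, those matched to the table, some with several promoters.

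Markers of the cell types that an ovary sample could hold were counted beside these changes, with the summed processed ovary signal of each list. Their counts are to be read against the 3.25% of all named genes called, 1.53% higher and 1.72% lower. The sum of 6 oocyte markers was 87935 to 90887 in null and 238684 to 248286 in heterozygous arrays, with 1 of 7 measured oocyte markers called, *Bmp15*, and a median log2 difference of -0.20. The granulosa-type markers summed to 23957 to 25798 in null and 47252 to 48148 in heterozygous arrays, with 2 of 9 called, both lower, and a median of -0.63. The Sertoli cell markers summed to 39277 to 41633 in null and 33083 to 33822 in heterozygous arrays, with 6 of 8 higher, 1 called and a median of 0.06. A sum is carried by the brightest probes of its list and comes from the ovary channel, normalized apart from the ratios, so it can differ from the median. The oocyte sums stood further apart than the mean log2 difference of the measured oocyte markers (-0.36). The reason for this gap was not tested. Among 11 measured leukocyte markers, *Cd74*, the chaperone of class II MHC molecules, rose (-0.58 and -0.49 in null, -1.43 and -1.65 in heterozygous arrays, difference 1.00 ± 0.19, adjusted p = 0.0218). *Lyz2*, the lysozyme of macrophages, fell by 0.55 ± 0.09 on its brightest probe (adjusted p = 0.0106) with dimmer probes at -0.10 and -0.79 not called, and the median of the list was 0.0039. *Ptprc*, which marks all leukocytes, differed by -0.18, and the macrophage markers *Adgre1* and *C1qa* by -0.13 and 0.07. The summed processed ovary signal of the leukocyte list ran from 23734 to 24409 in null and from 23228 to 23876 in heterozygous arrays, overlapping. A probe of *H2-Eb1*, a class II MHC chain from a family of similar genes, rose by 1.13 ± 0.17 (2.08 and 2.18 against 0.99 and 1.00, adjusted p = 0.00617; lost without all but null replicate 1), with the brightest probe at 0.19 (adjusted p = 0.0915). *Cd74* lost its call without any 1 array (0.90 to 1.12), was called at 0.65 with normexp, and *Lyz2* kept it only without null replicate 2 (-0.63). Both genes and this *H2-Eb1* probe were named after their values were seen.

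Stromal and smooth muscle markers were lower in 9 of 9, with *Pdgfra*, a growth factor receptor of mesenchyme and theca precursors, called (0.00 and -0.14 in null against 0.96 and 0.99, difference -1.04 ± 0.20, adjusted p = 0.0189; lost without any 1 array, -1.11 to -0.97). Their summed signal was 300683 to 358809 in null and 380321 to 389988 in heterozygous arrays. None of 9 endothelial markers was called, with a median of -0.36. Of 10 markers of oviduct, uterus and ducts, 7 were higher, *Krt18* and *Pax8* (difference 0.39 ± 0.06, adjusted p = 0.00575, lost without null replicate 2, at 0.33, or heterozygous replicate 2, at 0.38) rose and *Cdh1* fell, and the summed signal was 91360 to 101023 in null and 71894 to 75440 in heterozygous arrays. All 5 surface epithelium markers were higher and none was called, with sums of 52254 to 55459 and 43582 to 45117. Fat markers were higher in 7 of 9 with none called, and their sums were 84432 to 84743 in null and 50718 to 73628 in heterozygous arrays. No marker list had all of its genes below background in either group. The part of these cell types in the changes above was not tested.

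Wild-type ovaries place the null and heterozygous levels, but the 3 comparisons share arrays, so their values are given side by side only. Null minus wild-type called 2289 probes (5.58%), 971 higher (2.37%) and 1318 lower (3.22%), and heterozygous minus wild-type 28 (0.0683%), 11 higher (0.0268%) and 17 lower (0.0415%). Over the granulosa list, the median was -0.27 for null minus heterozygous, -0.16 for heterozygous minus wild-type and -0.42 for null minus wild-type. Over the fetal ovary somatic list these were 0.33, 0.02 and 0.47, and over the oocyte growth list -0.19, -0.03 and -0.18. *Cyp11a1*, *Nr5a2* and *Inha*, not called between null and heterozygous ovaries, were called between null and wild-type ones, at -3.49 (adjusted p = 0.0126), -2.62 (adjusted p = 0.0115) and -2.28 (adjusted p = 0.00387).

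Newborn ovaries, on 6 other arrays, showed what the loss of the second allele had changed a week earlier. There 165 of 41005 probes were called (0.402%), 92 higher (0.224%) and 73 lower (0.178%) in null ovaries, with 3 arrays a group. Of the 389 probes that rose at 7 dpn, 341 (87.7%) were also higher in newborns, where 48.7% of all probes were higher. Their median newborn difference was 0.24, and 61 were called in the same direction. Of the 515 that fell, 446 (86.6%) were lower in newborns, against 51.3% of all probes, with a median of -0.19 and 41 called in the same direction. The 104 probes called at both ages were 63.0% of the newborn calls and 11.5% of the 7 dpn calls, and 102 of them had the same direction. Without 1 newborn array in turn, the newborn count was 45 to 85.

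Several genes stood apart at both ages. *Usp26* fell by 1.55 in newborns (adjusted p = 0.0056), *Slco3a1* by 1.32 (adjusted p = 0.0252) and *Rgs2* by 1.11 (adjusted p = 0.0398). *Cst9* rose by 1.47 (adjusted p = 0.0126), *Wnt11* by 1.10 (adjusted p = 0.0169), *Cck* by 1.02 (adjusted p = 0.0077), *Vdr* by 1.02 (adjusted p = 0.0056), *Ccl17* by 0.92 (adjusted p = 0.0321) and *Mt1* by 0.69 (adjusted p = 0.01). Other falls of the 7 dpn ovary had newborn differences near 0. These included *Apoa1* (-0.06), *Bmp15* (0.09), *Mos* (0.04), *Oosp1* (-0.07), *Amh* (0.09) and *Esr2* (-0.03). The difference between the ages was not called for any of these genes, with *Bmp15* at -1.73 ± 0.37 (adjusted p = 0.158). It was called for 21 of 40997 probes (0.0512%), 16 more positive at 7 dpn (0.039%) and 5 more negative (0.0122%), and 13 of them named. *Pkp1* rose by 2.12 at 7 dpn and differed by 0.18 in newborns (difference between ages 1.94, adjusted p = 0.0413), and *Sema3a* by 1.10 and -0.08 (difference 1.17, adjusted p = 0.0464). The call between ages was lost in all 10 fits without 1 array for *Pkp1* and in 9 of 10 for *Sema3a*.

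**Figure D4:**
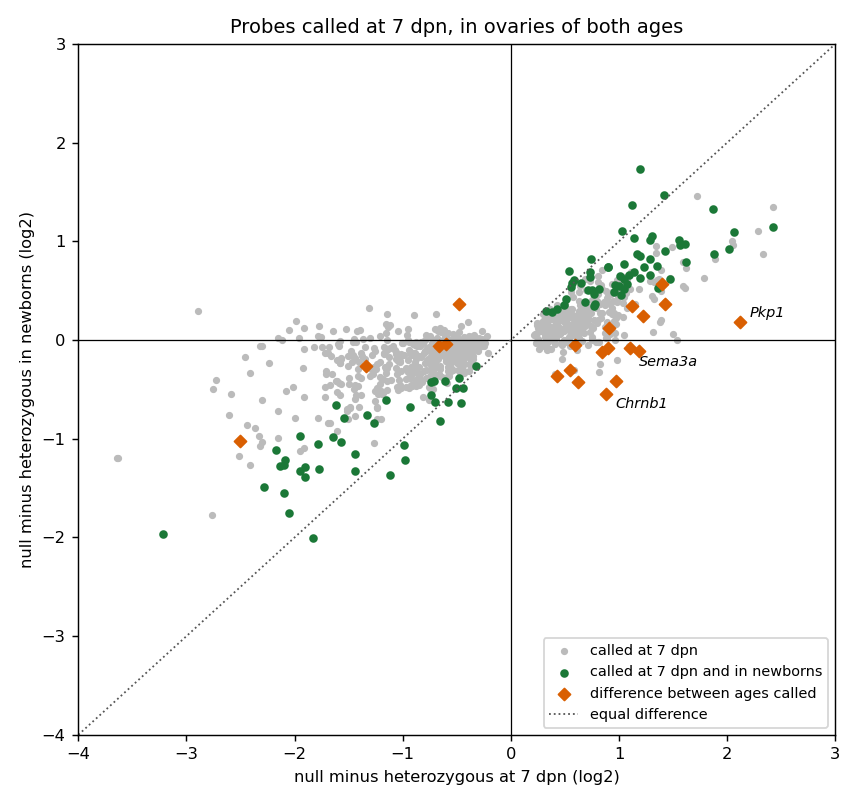
Null minus heterozygous difference (log2) of each of the 904 probes called at 7 dpn, at 7 dpn (horizontal axis) and in newborns (vertical axis): grey, called at 7 dpn; green, called at both ages; orange, difference between the ages called; dotted line, equal differences. Most probes lie on the same side of 0 at both ages and nearer to 0 in newborns, and *Pkp1*, *Sema3a* and *Chrnb1* lie at or below 0.18 in newborns.

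Genes that had changed in fetal and newborn null ovaries on another platform, were looked up by symbol. They came from the study's supplementary lists of genes shared by its separate pairwise comparisons at each age, which are shorter than its lists from all ages compared together, so a gene outside them, such as *Rgs2*, was not counted. Of 68 listed that had risen, 37 were measured, of which 5 rose between heterozygous and null ovaries at 7 dpn (13.5%, against 1.53% of all named genes) and none fell, with a median of 0.06. They were *Pla2g5*, *C1qtnf4*, a secreted protein (difference 1.39 ± 0.21, adjusted p = 0.00553, lost without null replicate 1, at 1.16, or heterozygous replicate 2, at 1.2), *Wnt11*, *Lgals1*, a galectin (difference 0.88 ± 0.14, adjusted p = 0.00781, lost without null replicate 2, at 0.77, or heterozygous replicate 2, at 0.72), and *Adamts8*. Of 84 listed that had fallen, 35 were measured and 2 fell (5.71%, against 1.72% of all named genes), the actin nucleator *Cobl* (0.39 and 0.53 in null, 1.40 and 1.37 in heterozygous and 0.74 and 0.73 in wild-type arrays, difference -0.93 ± 0.11, adjusted p = 0.00141, held without each array) and *Dock5*, an activator of Rac (difference -0.43 ± 0.10, adjusted p = 0.049, lost without any 1 array, -0.46 to -0.39, and with the ovary channel alone, at -0.73). The median of those 35 was -0.01. *Cobl* lost its call in 1 of the 13 alternative fits.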

How the data were processed

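Per the labels and methods, Cy3-labelled ovary RNA and a Cy5-labelled universal mouse reference were hybridized to Agilent mouse developmental arrays, 1 ovary sample per array and without dye swaps. The label protocol names a linear amplification kit, whereas the methods state that RNA was not amplified. The methods give 4 samples at 7 dpn; 6 carry its labels, and the age field gives birth for them against 7 dpn in title and methods. The authors deposited scanner intensity values, which Agilent Feature Extraction had background-subtracted and dye-normalized by LOWESS. The authors also deposited series values of unstated scale, a signal used as an alternative on the log2 scale. The build behind the array design is not given in the sources used here.

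Control and outlier spots were left out (41006 probes kept), each array's log2 ratios were adjusted by lowess (span 0.01) against the probe means of all 15 arrays, and 6 group means were fitted with limma 3.58.1 (R 4.3.3). RefSeq accessions named 15294 probes. The number of arrays limits the precision. On simulated data with 200 of 40558 probes changed, 54, 84, 90 and 100% were called at log2 changes of 0.5, 1, 1.5 and 2. Named were the 15 largest calls in each direction without overlap and, per list, up to 6 called genes or the largest differences, by brightest probe, and genes of the study's dosage experiment (*Inhbb* and *Sohlh1* had no named probe). Members and lists were chosen with earlier results of these data known. A few genes that this rule names are not reported here.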

Additional observations from a re-analysis of the deposited data

Results flagged for a closer look

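The null minus heterozygous difference was more positive at 7 dpn than in newborns, by a test of the difference between the ages, for 12 named genes. *Pkp1*, a desmosome protein, differed between ages by 1.94 (adjusted p = 0.0413). *Chrnb1*, a subunit of the muscle acetylcholine receptor, was 0.88 at 7 dpn and -0.54 in newborns, a difference of 1.43 (adjusted p = 0.00539). *Krt20*, a keratin of gut epithelium, went from -0.41 in newborns to 0.97 (difference 1.38, adjusted p = 0.0221), and *Gata3*, a transcription factor, from -0.43 to 0.62 (difference 1.05, adjusted p = 0.0479). *Pde6h*, a phosphodiesterase subunit of cone cells, was 1.18 at 7 dpn and -0.11 in newborns (difference 1.29, adjusted p = 0.00781), and *Sema3a* 1.10 and -0.08 (difference 1.17, adjusted p = 0.0464). The difference was 0.97 for *Scg5* (adjusted p = 0.0388), 0.84 for *Pcgf5* (adjusted p = 0.0275), 0.79 for *Bid* (adjusted p = 0.0221), 0.79 for *Epb41l3* (adjusted p = 0.0221), 0.78 for *Prkcb* (adjusted p = 0.0297) and 0.64 for *Il17rc* (adjusted p = 0.0388). *Olfr365*, named as an olfactory receptor, fell at 7 dpn (-0.67) with -0.06 in newborns (difference -0.61, adjusted p = 0.0221). *Chrnb1* (1.36 to 1.51) and *Pde6h* (1.21 to 1.39) kept their calls without each of the 10 arrays of the 4 groups in turn. The other 11 lost theirs without 8 or more of the 10, with the sign unchanged. The headers give feature extraction on different days for the 7 dpn and the newborn arrays, so age and that day cannot be told apart.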

How the results depend on the processing

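Of 92 called results for named genes and probes, 18 kept their call under all 13 alternatives run on them, 30 kept it without each of the 4 arrays, and 0 changed sign. The ovary channel alone kept 47 and the fit without null replicate 2 kept 32. The 7 dpn count of 904 became 1394 with normexp correction, 308 with the ovary channel alone, 374 with only the 7 dpn arrays, 359 with only the 4 arrays compared, 382 at a threshold of 0.01 and 257 to 449 with 1 array left out. It stayed within 1.5 times with median centring, a span of 0.3, the series values and a filter on dim probes. The 21 probes that differed between ages became 111 with normexp (55.0% higher at 7 dpn, against 76.2%), 5 with median centring, 0 with the ovary channel alone (limma counted 1347 at an unadjusted p under 0.05), 9 with the series values, 3 at a threshold of 0.01 and 3 to 13 with 1 array left out. Newborn alternatives, and those for genes named after their values were seen, were chosen after seeing the data. The newborn count of 165 became 282 with normexp, 41 with the ovary channel alone, 95 with the series values and 45 to 85 with 1 array left out. Where 1 array of a group was left, it was assumed to vary like the other groups.

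Replicate numbers as a block gave 784 calls at 7 dpn, 87 in newborns and 6 between the ages. Deviations of same-numbered arrays correlated at -0.0146 at 7 dpn and at -0.0775, 0.111 and -0.0407 in newborns. With 2 arrays a group, the deviations at 7 dpn mirror one another. These values therefore cannot settle whether the numbers pair the samples.

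Differences near 0 turned sign. *Figla* was 0.016 with normexp, 0.0030 with median centring, 0.023 with a span of 0.3 and 0.095 with the ovary channel alone, and *Nr5a1* was -0.011 with the ovary channel alone. *Foxl2* was -0.022 without null replicate 2, -0.0069 without heterozygous replicate 2 and 0.038 without null replicate 1, and *Igfbp1*, 0.19 and not called, was -0.25 without null replicate 1 and 0.68 without null replicate 2. The cause of these changes was not tested. A block for scan day was not run, as the headers give only a feature extraction time, on the same day for the 7 dpn arrays. Of the called probes, 10 were not well above background on any null array and 12 on any heterozygous array.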
